A study of Mus musculus with 16 samples.

Results

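Integrin genes other than those of the Itgax locus were followed across the dendritic cells (DCs) of mice with and without Itgax-Cre deletion of Trim33. The rule named 9 genes, Itgal, Itgb2, Itgb7, Itga4, Itgb1, Itgav, Itgb3, Itgb5 and Itgb8, and all 9 were found by symbol among the 17128 genes of the table for plasmacytoid DCs (pDCs) and the 17721 genes of the table for conventional DCs (cDCs). The 16 RNA-seq libraries were made from splenic DCs of C57BL/6 mice aged 6 to 8 weeks. WT mice were Trim33 fl/fl, and cKO mice were Trim33 fl/fl Itgax-Cre, so both genotypes carry the floxed alleles and the cKO mice alone carry Cre, driven by Itgax, the gene of CD11c. The labels give the cKO genotype as Trim33-/-. The sorted subsets were pDCs (CD11c+ SiglecH+, 3 WT and 3 cKO libraries), cDC1s (SiglecH- MHC II+ CD24+ CD172a-, 2 and 2) and cDC2s (SiglecH- MHC II+ CD24- CD172a+, 3 and 3). Every sort used CD11c itself, an integrin chain, and the Cre transgene and the deletion always came together, so their effects cannot be told apart. Each library pooled the cells of several mice, more of them for cKO than for WT libraries. Values are TPM, length-corrected transcript abundances scaled to the same total in every library, which can be compared between genes.

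Integrins are surface receptors made of an α and a β chain, and neither chain reaches the surface without a partner. On leukocytes the β2 family binds intercellular adhesion molecules, the α4 chain binds VCAM-1 with β1 and MAdCAM-1 with β7, and αE joins β7 to bind E-cadherin. The αv integrins bind RGD sequences, and αvβ8 on DCs is known for releasing active TGF-beta from its latent complex.

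The labels were checked against Trim33 and markers of each subset. Trim33 was 20.6 to 23.8 TPM in WT and 11.7 to 16.5 TPM in cKO pDCs, 15.5 and 18.2 against 7.88 and 7.71 TPM in cDC1s, and 17.2 to 20.6 against 7.13 to 8.07 TPM in cDC2s, with no overlap in any subset. A gene was called where limma gave an adjusted p (Benjamini-Hochberg, over all genes tested) of at most 0.01 and a log2 fold change of at least 0.5 in size on log2(TPM + 1). By this rule Trim33 was called in cDC1s (−1.02) and cDC2s (−1.17) and not in pDCs (−0.68, adjusted p 0.0301 from limma), where it was called with the replicate number as a block (adjusted p 0.00361). Estimated depths were 18.05 to 20.2 M reads, and replicates of a group correlated across genes at r = 0.981 to 0.994. The 7 pDC markers summed to 12000 to 13600 TPM in pDC libraries and 240 to 515 TPM in cDC libraries. The 7 cDC1 markers summed to 1800 to 2460 TPM in cDC1s, 178 to 252 TPM in cDC2s and 401 to 559 TPM in pDCs. The 7 cDC2 markers summed to 1250 to 1680 TPM in cDC2s and 51.1 to 66.9 TPM in cDC1s, and to 1990 to 2300 TPM in pDCs, so this list sets cDC2s apart from cDC1s and not from pDCs. The study's methods call such replicates biological, and p values measure the spread between these pooled libraries.

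The 9 genes spanned a wide range of abundance. Itgal, Itgb2, Itgb7, Itga4 and Itgb1 lay between 94.0 and 778 TPM in every library. Itgav and Itgb5 lay between 1.07 and 20.3 TPM, and Itgb3 ran from 0.29 to 54.7 TPM. Itgb8 never exceeded 0.29 TPM. Together the 9 genes made up 0.117% to 0.166% of all transcripts in a library (0.125% to 0.166% in WT and 0.117% to 0.145% in cKO libraries).

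**Figure D1:**
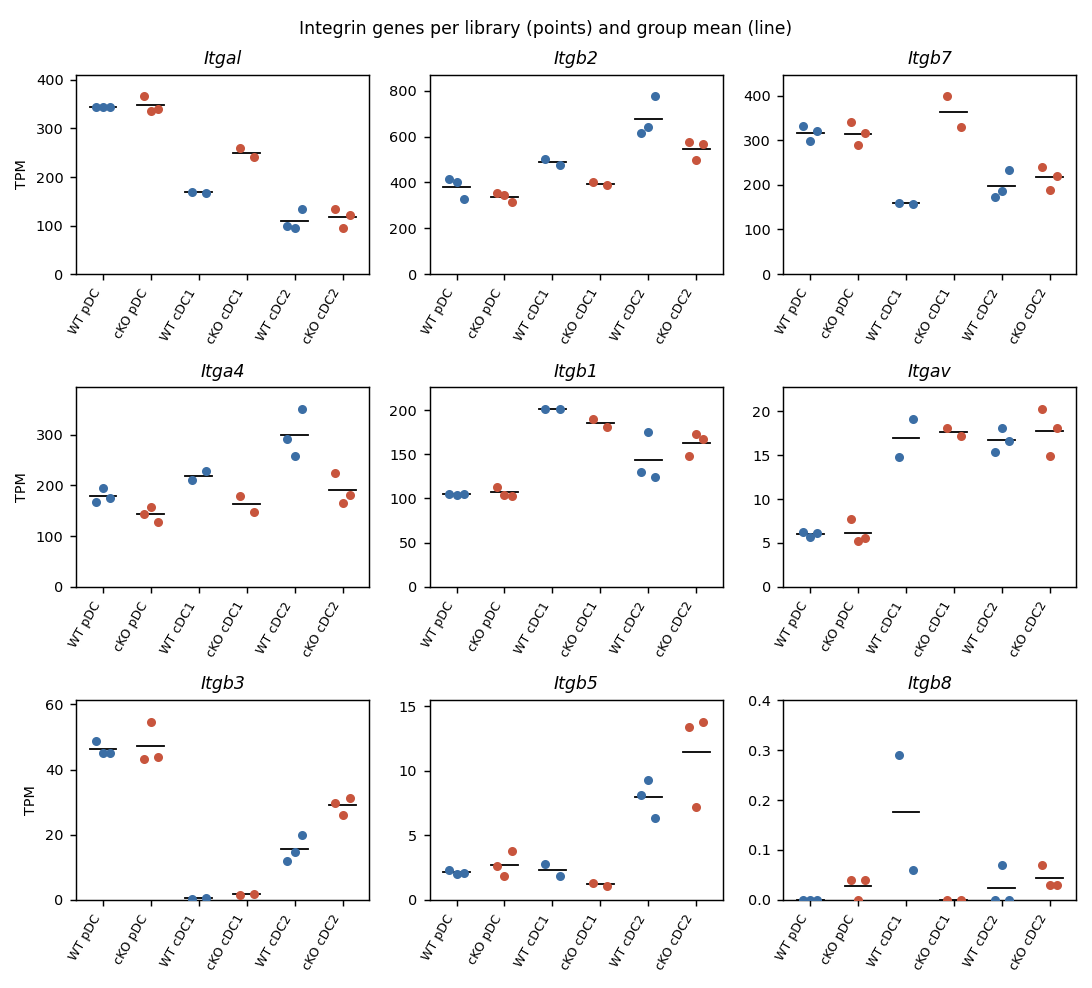
TPM of the 9 integrin genes, with 1 panel per gene (vertical axis, TPM from 0) and the 6 groups along the horizontal axis; points are libraries (blue WT, red cKO) and lines are group means. Itgb7 rises in cKO cDC1s to the range of pDCs or above it, Itgb3 separates the subsets, and Itgb8 stays below 0.3 TPM throughout.

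The subsets differed in which integrin chains they carried. Itgal, which encodes αL (CD11a) of LFA-1, was highest in pDCs (344 to 345 TPM in WT and 336 to 367 TPM in cKO), followed by cKO cDC1s (241 and 260 TPM), WT cDC1s (167 and 169.9 TPM), cKO cDC2s (95.6 to 134 TPM) and WT cDC2s (94.0 to 133 TPM). Neighbouring ranges overlapped between the pDC groups and between the cDC2 groups, and the other steps were clear of overlap. Itgb2, which encodes the shared β2 chain (CD18), ran the other way, from 615 to 778 TPM in WT cDC2s down to 316 to 353 TPM in cKO pDCs. Itgb1, which encodes β1, was highest in WT cDC1s (201 TPM in both libraries) and lowest in WT pDCs (104 to 105 TPM), with cKO pDCs overlapping the latter. Levels in pDCs and cDCs come from tables that list different genes, and no test was made between them.

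Itgb3, which encodes β3, the partner of αv, separated the subsets most. It was 43.2 to 54.7 TPM in pDCs, where WT and cKO libraries overlapped, 26.1 to 31.3 TPM in cKO cDC2s, 11.9 to 19.97 TPM in WT cDC2s, 1.59 and 1.68 TPM in cKO cDC1s, and 0.29 and 0.57 TPM in WT cDC1s. Itgb5, which encodes β5, another αv partner, was 6.36 to 13.8 TPM in cDC2s and 1.07 to 3.79 TPM elsewhere. Itgav, which encodes αv itself, was 14.8 to 20.3 TPM in all 4 cDC groups, which overlapped each other, and 5.22 to 7.70 TPM in pDCs.

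WT cDC1s and WT cDC2s were then compared directly, because their integrin makeup without any deletion sets the base for the rest. Of the 8 members tested, 3 were called, and 31.7% of all 11411 genes tested were called in this contrast, 10.9% higher and 20.8% lower in cDC1s. Itgb3 was lower in cDC1s by 3.51 on the log2 scale (SE 0.19, limma adjusted p 2.24e-07) and Itgb5 lower with a log2 difference of −1.43 (SE 0.26, adjusted p 0.00124), while Itgal was higher by 0.64 (SE 0.17, adjusted p 0.00934). The Itgb3 call was made in all 19 alternatives (−4.90 to −2.82), and that of Itgb5 in 18, being lost without WT cDC1 library 2 (adjusted p 0.0159). The Itgal call was lost in 7 of 10 fits that each left out 1 cDC library, among them the fit without WT cDC2 library 2 (limma adjusted p 0.0308). It was kept without WT cDC2 library 3 or cKO cDC2 library 1 or 2. Itgb2 was lower in cDC1s at −0.46 (adjusted p 0.00714), short of the fold limit, and Itgav differed by 0.01 (95% interval −0.32 to 0.34). The median of all genes tested was −0.17 in this contrast.

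Of the 9 genes, Itgb7 had the smallest adjusted p between WT and cKO libraries, in cDC1s. It encodes β7 (gene ID 16421, chromosome 15, 102215994 to 102233405, GRCm38.p6). It was 159 and 158 TPM in the WT cDC1 libraries and 399.8 and 329 TPM in the cKO cDC1 libraries. Both cKO libraries lay well above both WT libraries. Library 2 lay within the range of pDCs (289 to 341 TPM) and library 1 above it. The mean rose from 158.6 ± 0.608 (SD, n = 2) to 364.6 ± 49.8 TPM (SD, n = 2), which limma put at 1.19 on the log2 scale (SE 0.16, adjusted p 4.97e-04). The call was made in all 22 alternatives, with adjusted p values of 0.000179 to 0.00866 and log2 fold changes of 1.02 to 1.33. All genes tested had a median of 0.17 in cDC1s as deposited, against 0.02 after median-of-ratios scaling and 0.04 after quantile normalization, and relative to that median Itgb7 rose by 1.02.

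Marker genes of DC maturation moved with the cDC1 results. Of 12 such markers 11 were called lower in cDC1s (median −2.40), beside 6.56% of all genes called lower, the 4 largest being Ccr7 (−4.37), Il12b (−4.18), Cacnb3 (−3.53) and Socs2 (−2.93). Their summed level was 1610 to 2540 TPM in WT and 407 to 511 TPM in cKO cDC1s. In cDC2s 2 of 12 were called lower, Ccr7 (−1.91) and Cd86 (−0.85), with a list median of −0.47, beside 3.56% of all genes called lower. The other markers were not called there. Ccl22 had a higher mean in cKO cDC2s (24.6 TPM in WT and 37.0 TPM in cKO), with overlapping libraries. The sums were 1260 to 1650 TPM in WT and 742 to 939 TPM in cKO cDC2s. In pDCs the sums were 167 to 194 against 168 to 203 TPM. Their part in the integrin results was not tested. In bulk libraries a smaller share of a cell state and less RNA per cell cannot be told apart.

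In the other subsets Itgb7 was not called. In cDC2s it was 172, 187 and 233 TPM in WT and 241, 189 and 219.8 TPM in cKO libraries, which overlapped (0.14, 95% interval −0.16 to 0.43). In pDCs it was 333, 298 and 321 TPM in WT and 341, 289 and 316 TPM in cKO libraries (−0.01, 95% interval −0.18 to 0.16, and 0.03 after median-of-ratios scaling, 0.02 with FPKM). The cDC1 effect exceeded the cDC2 effect by 1.05 (SE 0.21, limma adjusted p 0.0149), which did not pass the threshold. It passed with FPKM in place of TPM, and its adjusted p ranged from 0.00904 to 0.0943 over the alternatives.

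Itga4 encodes α4 (gene ID 16401, chromosome 2, 79255426 to 79333114, GRCm38.p6), which pairs with β7 and with β1. It was 209.8 and 229 TPM in WT and 179.6 and 148 TPM in cKO cDC1s, 291, 257 and 351 TPM in WT and 225, 166 and 181 TPM in cKO cDC2s, and 167, 195 and 175 TPM in WT and 144, 157 and 128 TPM in cKO pDCs. The cKO libraries were all below the WT libraries in each of the 3 subsets. Groups failed to overlap for 76.2% of all genes tested in cDC1s, 35.5% in cDC2s and 27.5% in pDCs. The log2 fold changes were −0.42 in cDC1s (SE 0.18, limma adjusted p 0.083), −0.65 in cDC2s (SE 0.14, adjusted p 0.0122) and −0.33 in pDCs (SE 0.09, adjusted p 0.0883), and none was called. In cDC2s Itga4 was called with FPKM (−0.61), after median-of-ratios scaling (−0.60) and at an adjusted p of 0.05. In pDCs the replicate block gave an adjusted p of 0.0133.

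The sequence before the start sites of Itgb7 and Itga4 is shown because β7 and α4 form 1 receptor and, in cDC1s, the fold changes of their genes had opposite signs. Of the 9 genes, 6 matched an entry among the RefSeq promoters (GRCm38.p6). The window of Itgb7 (chr15:102231945-102232185, minus strand) and that of Itga4 (chr2:79255176-79255416, plus strand) hold the 241 bases from 250 to 10 bases before the listed start. The RefSeq span of Itgb7 reaches past its window, so another start lies upstream. Capitals mark AGGAAG or its reverse complement CTTCCT, core letters of many sites of PU.1 and other ETS factors, and CAGACA or TGTCTG, core letters of many SMAD sites.
Itgb7: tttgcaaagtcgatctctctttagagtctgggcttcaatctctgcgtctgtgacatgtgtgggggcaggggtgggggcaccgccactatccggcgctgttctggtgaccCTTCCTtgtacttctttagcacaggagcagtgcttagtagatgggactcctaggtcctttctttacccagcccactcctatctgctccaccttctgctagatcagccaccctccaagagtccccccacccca
Itga4: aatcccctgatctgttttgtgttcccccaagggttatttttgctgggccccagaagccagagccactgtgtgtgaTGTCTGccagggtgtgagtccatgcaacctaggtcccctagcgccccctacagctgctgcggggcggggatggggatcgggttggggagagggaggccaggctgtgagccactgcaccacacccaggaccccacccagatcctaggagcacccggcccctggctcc
Read on both strands, Itgb7 held 1 AGGAAG match, starting 141 bases before the listed start, and Itga4 held 1 CAGACA match, starting 175 bases before it. Windows of this length held AGGAAG in 28.5% and CAGACA in 16.6% of 32851 RefSeq promoters. Of the 6 members with an entry, 2 held AGGAAG and 3 held CAGACA.

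The other α partner of β7 was lower in cKO cDC1s. Itgae, which encodes αE (CD103), lies outside the named genes and was measured as their partner. It was 77.7 and 62.0 TPM in WT and 9.63 and 10.1 TPM in cKO cDC1s, a log2 fold change of −2.70 (SE 0.27, limma adjusted p 1.02e-04) called in all 22 alternatives. Its share of the summed Itga4 and Itgae transcripts thus went from 21.3% and 27.0% to 5.09% and 6.37%. In pDCs and cDC2s this share was at most 0.611% in any library. The ratio of Itgb7 to Itga4 plus Itgae was 0.553 and 0.544 in WT cDC1s and 2.11 and 2.08 in cKO cDC1s. It was 0.589 to 0.724 in WT and 1.07 to 1.21 in cKO cDC2s, without overlap, and 1.52 to 1.99 against 1.84 to 2.46 in pDCs, where the groups overlapped.

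**Figure D2:**
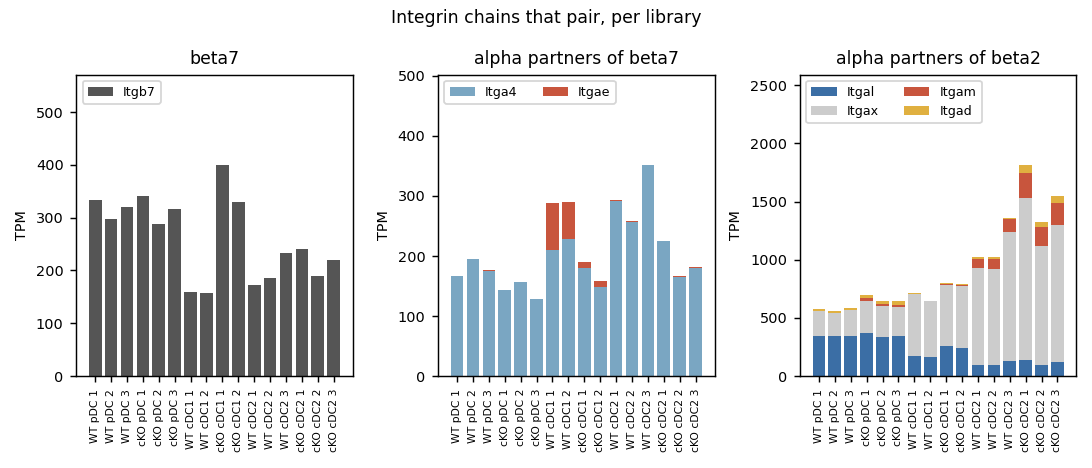
TPM per library (vertical axis, from 0) of Itgb7, of the α partners of β7 stacked (Itga4 and Itgae) and of the α partners of β2 stacked (Itgal, Itgax, Itgam and Itgad), with the 16 libraries along the horizontal axis. The 2 cKO cDC1 libraries have the highest Itgb7 bars of the cDC libraries and less Itgae than the 2 WT cDC1 libraries.

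Itgb3 was called higher in both cDC subsets, from very different levels. In cDC2s it was 11.9, 14.7 and 19.97 TPM in WT and 29.8, 26.1 and 31.3 TPM in cKO libraries, with no overlap. The log2 fold change was 0.89 (SE 0.17, limma adjusted p 0.00661). In cDC1s the WT libraries held 0.29 and 0.57 TPM and the cKO libraries 1.59 and 1.68 TPM, and the fold change was again 0.89 (SE 0.21, adjusted p 0.00776). At these depths 3 reads on the longest coding Itgb3 transcript (5784 bases) correspond to 0.0482 to 0.0633 TPM, so the WT cDC1 values rest on about 17 and 33 reads, and their fold on log2(TPM + 1) is understated (1.76 with a pseudocount of 0.1). The fold changes in the cDC subsets differed by 0.00 (95% interval −0.60 to 0.60), and that difference was −0.11 after median-of-ratios scaling, −0.31 with FPKM and 0.84 with a pseudocount of 0.1.

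Both calls of Itgb3 were close to the threshold. In cDC2s the call was kept without WT cDC1 library 1 or 2 or WT cDC2 library 3 and lost in the other 7 such fits (adjusted p up to 0.0347). In cDC1s it was kept without WT cDC2 library 1 or 3 and lost in the other 8 (adjusted p up to 0.0568). It was lost in cDC1s with FPKM (0.58, adjusted p 0.021), and in cDC2s with a pseudocount of 0.1 (0.93, adjusted p 0.0211). In cDC1s and cDC2s alike it was lost with no filter (0.0209 and 0.0185), with the replicate block (0.0112 and 0.0132) and with the subset's libraries alone (0.0159 and 0.0172). In pDCs, where Itgb3 is most abundant, it was 48.8, 45.0 and 45.05 TPM in WT and 43.2, 54.7 and 44.0 TPM in cKO libraries (0.02, 95% interval −0.20 to 0.25).

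Monocyte and macrophage markers, 11 genes, summed to 1340 to 1850 TPM in WT and 2650 to 3440 TPM in cKO cDC2s, with Csf1r (0.94), Fcgr1 (1.15) and Lyz2 (1.40) called higher. Most of that sum was Lyz2, at 617 to 1048 TPM in WT and 1945 to 2449 TPM in cKO libraries. The other 8 markers were not called, among them Marco (−1.73), Cd5l (−0.63), Adgre1 (−0.28), C1qc (0.01) and Cd14 (0.07). In cDC1s the list summed to 377 to 645 against 387 to 401 TPM, with Csf1r (0.85) and Ly6c2 (1.40) called higher and the other 9 not called, among them Cd14 (−1.67), C1qc (−1.04) and C1qb (−0.86). In pDCs it summed to 4890 to 5570 against 5750 to 5930 TPM, nearly all of it Ly6c2. Their part in the Itgb3 result was not tested.

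Counted over the members, cDC1s had 2 of 8 called, both higher, where 22.4% of all 11411 genes tested were called, 15.8% higher and 6.56% lower. In cDC2s 1 of 8 was called, higher, where 7.15% of all genes were called, 3.59% higher and 3.56% lower. In pDCs limma called 0 of 8, with 1 at an unadjusted p under 0.05 (Itga4), where 1.05% of 11299 genes were called, 0.814% higher and 0.239% lower. For the cDC1 effect minus the cDC2 effect it called 0 of 8, with 2 at an unadjusted p under 0.05 (Itgb7 and Itgb5), where 2.56% of all genes were called, 1.21% higher and 1.35% lower. The shares in cDC1s and cDC2s are close to these backgrounds. The median log2 fold change of the tested members was 0.01 in pDCs, −0.03 in cDC1s and 0.12 in cDC2s, beside −0.05, 0.17 and −0.02 over all genes tested. Between WT and cKO libraries 7 of 8 members did not overlap in cDC1s, 3 in cDC2s and 1 in pDCs, beside 76.2%, 35.5% and 27.5% of all genes.

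**Figure D3:**
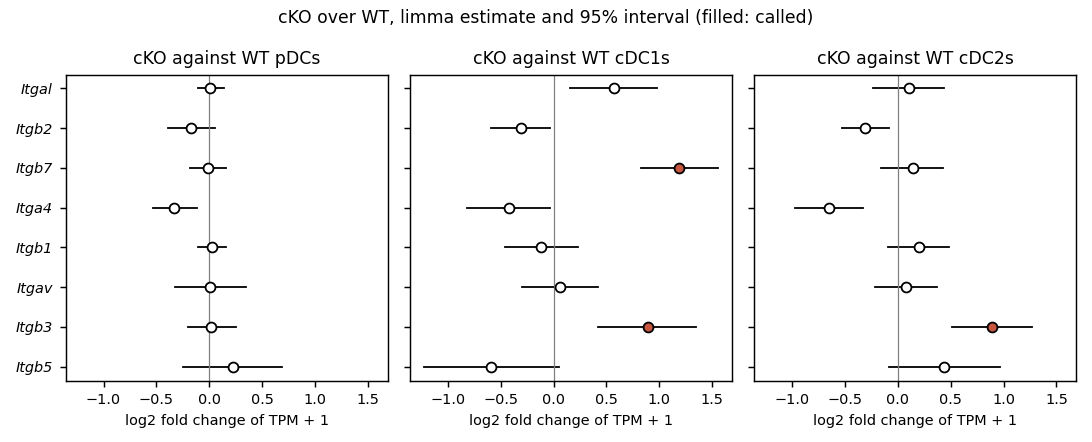
Log2 fold change of TPM + 1 (horizontal axis) of the 8 tested members in pDCs, cDC1s and cDC2s, cKO over WT; points are limma estimates, bars 95% intervals, and filled points are called. Filled points are Itgb7 and Itgb3 in cDC1s and Itgb3 in cDC2s, and Itga4 lies left of 0 in all 3 panels.

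The remaining chains were not called. Itgal was 169.9 and 167 TPM in WT and 260 and 241 TPM in cKO cDC1s, clear of overlap. Its log2 fold change of 0.57 (SE 0.18, limma adjusted p 0.0315) was called without WT cDC2 library 3 and with the cDC1 libraries alone, and its adjusted p ranged from 0.00274 to 0.154. Itgal was level in pDCs (0.01, 95% interval −0.11 to 0.14) and in cDC2s (0.11, 95% interval −0.23 to 0.44).

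Itgb2 was 500 and 478 TPM in WT and 403 and 388 TPM in cKO cDC1s, and 615, 642 and 778 TPM in WT and 575, 499.9 and 566 TPM in cKO cDC2s. In both subsets the cKO libraries lay below the WT libraries, and the log2 fold change was −0.31 in each (SE 0.13 and 0.10, limma adjusted p 0.0762 and 0.0612). In pDCs Itgb2 was 416, 403 and 327 TPM in WT and 353, 344 and 316 TPM in cKO libraries, which overlapped (−0.17, 95% interval −0.39 to 0.05). Itgb1 differed by 0.03 in pDCs (95% interval −0.11 to 0.16), −0.12 in cDC1s (−0.46 to 0.23) and 0.20 in cDC2s (−0.09 to 0.48).

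Among the α partners of β2, the share of Itgal differed between genotypes in each subset, with no test made. Of the summed Itgal, Itgam, Itgax and Itgad transcripts, Itgal held 58.9% to 61.8% in WT and 51.8% to 53.0% in cKO pDCs, and 9.18% to 9.77% in WT and 7.20% to 7.85% in cKO cDC2s. In cDC1s its share went the other way, from 23.9% and 25.8% to 30.5% and 32.4%. Itgam, which encodes αM (CD11b), took 0.222% to 0.431% in WT and 2.52% to 3.63% in cKO pDCs. The shares of Itgax (35.2% to 38.2% against 39.9% to 41.1%) and Itgad (2.24% to 2.76% against 3.73% to 4.60%) were also higher in cKO pDCs. In mean TPM Itgax went from 212 to 268, Itgam from 1.81 to 20.3 and Itgad from 14.7 to 27.5 there, while Itgal was 345 and 348. Itgal (chromosome 7, 127296139 to 127335137, GRCm38.p6) lies 794.4 kb from Itgax on the same chromosome. Itgam and Itgad flank Itgax, whose regulatory sequence drives the Cre transgene.

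The αv chains and their part in TGF-beta release were examined because the list was drawn up around Itgb8 and Itgav. Itgb8 (gene ID 320910, chromosome 12, 119162803 to 119238276, GRCm38.p6) was listed at 0 in 8 of 16 libraries and fell under the filter on low values. In WT cDC1s it was 0.29 and 0.06 TPM, about 24 and 5 reads on its longest coding transcript of 8403 bases. In cKO cDC1s it was listed at 0 in both libraries, where 3 reads would correspond to 0.0355 and 0.0372 TPM. In cDC2s it was 0, 0.07 and 0 TPM in WT and 0.07, 0.03 and 0.03 TPM in cKO libraries, and in pDCs 0, 0 and 0 TPM in WT and 0.04, 0 and 0.04 TPM in cKO libraries. WT cDC1s thus held the highest value, and the lower of their values overlapped cDC2s. Fitted without the filter, Itgb8 was not called in any comparison. Its log2 fold change was −0.23 in cDC1s (SE 0.08, limma adjusted p 0.0766, unadjusted p 0.0223), 0.03 in cDC2s (adjusted p 0.842) and 0.04 in pDCs (adjusted p 0.618).

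Itgav was 14.8 and 19.1 TPM in WT and 18.1 and 17.2 TPM in cKO cDC1s, 15.4, 18.1 and 16.7 TPM in WT and 20.3, 14.95 and 18.1 TPM in cKO cDC2s, and 6.25, 5.71 and 6.14 TPM in WT and 7.70, 5.22 and 5.60 TPM in cKO pDCs. The genotypes overlapped in every subset. The log2 fold changes were 0.06 in cDC1s (95% interval −0.30 to 0.42, and −0.10 after median-of-ratios scaling, −0.11 after quantile normalization), 0.08 in cDC2s (−0.22 to 0.37) and 0.01 in pDCs (−0.32 to 0.35). Centred over the 10 cDC libraries on log2(TPM + 1), the genes nearest to Itgav among 11410 others were Slc25a28, Gm40469 and Ppp3ca, each at a root mean square distance of 0.10. For Itgb3 the nearest was Csf1r (0.19), the receptor of CSF-1, ahead of Myo1e (0.29) and Cyp4f18 (0.31), and for Itgb7 it was Smpd4 (0.11), followed by Noa1 and Rgs14 (0.12 each). Itgb3 and Itgb7 were added to this search after their values were seen. Some gene always comes nearest, and no reference distance was computed. Itgav varied little over these libraries, so other genes that vary little lie close to it.

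Itgb5 had fold changes of opposite sign in the cDC subsets, neither of them called. In cDC1s it was 2.80 and 1.82 TPM in WT and 1.30 and 1.07 TPM in cKO libraries, which did not overlap (−0.59, limma adjusted p 0.132). In cDC2s it was 8.13, 9.31 and 6.36 TPM in WT and 13.4, 7.18 and 13.8 TPM in cKO libraries, which overlapped (0.44, adjusted p 0.209). The effects differed by −1.03 (SE 0.37, limma adjusted p 0.0973), short of the threshold. In pDCs it was 2.34, 2.00 and 2.07 TPM in WT and 2.59, 1.82 and 3.79 TPM in cKO libraries (0.22, 95% interval −0.25 to 0.69). Of the summed β1, β3, β5, β6 and β8 transcripts that can serve αv, Itgb1 held 98.3% to 98.8% in cDC1s, 77.3% to 87.9% in cDC2s and 64.8% to 71.1% in pDCs. Itgb8 held at most 0.142% in any library.

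Genes of latent TGF-beta handling were measured beside Itgav and Itgb8, and 4 of 10 listed genes were tested in each table. Tgfb1, which encodes the main TGF-beta of leukocytes, was 336 and 350 TPM in WT and 442 and 464 TPM in cKO cDC1s (0.40, SE 0.22, limma adjusted p 0.173). Ltbp2, which encodes a protein related to the latent TGF-beta binding proteins, fell in cDC1s from 24.03 and 22.8 TPM to 0.54 and 0.88 TPM (−3.84, SE 0.18, adjusted p 1.08e-06). It was 2.08 to 2.84 TPM in WT and 1.06 to 1.63 TPM in cKO cDC2s (−0.57, adjusted p 0.0242). The fall in cDC1s was larger by 3.27 (SE 0.24, adjusted p 7.77e-05). Ltbp2 was the 1 gene of this list called in cDC1s, beside 22.4% of all genes. In pDCs and cDC2s limma called 0 of 4, beside 1.05% and 7.15% of all genes, with 2 at an unadjusted p under 0.05 in each.

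The 17 other integrin genes gave calls in every subset. Of 4 tested in pDCs 2 were called, both higher (1.05% of all genes called). These were Itgam, from 1.30 to 2.48 TPM in WT to 16.2 to 25.4 TPM in cKO libraries (2.92, SE 0.20, limma adjusted p 9.52e-04), and Itgad (0.86, SE 0.10, adjusted p 0.00566), both genes of the Itgax locus. Of 10 tested in cDC1s, Itgam (2.10), Itgad (1.39) and Itga6 (0.96) were called higher and Itgae (−2.70) and Itga3 (−0.82) lower, beside 22.4% of all genes. In cDC2s Itgad (1.92), Itgam (1.03) and Itga5 (0.95) were called higher and none lower, beside 7.15%. Itga6, Itga3 and Itga5 encode partners of β1 that bind laminins or fibronectin. Itgax was not called in any subset. It was 537.8 and 476 TPM in WT and 524 and 533 TPM in cKO cDC1s (0.06, 95% interval −0.33 to 0.45). In pDCs it was higher without overlap, 196 to 224 TPM in WT and 257 to 282 TPM in cKO libraries (0.34, limma adjusted p 0.0338). In cDC2s it was 826 to 1108 against 1023 to 1401 TPM, which overlapped (0.39, limma adjusted p 0.0842). Itgam was called in every alternative in all 3 subsets, while Itgad in pDCs was lost whichever of the 6 libraries was left out (adjusted p 0.014 to 0.0228). Itga5 in cDC2s was lost in 8 of 10 (adjusted p up to 0.0328), being kept without WT cDC2 library 3 or cKO cDC2 library 2. Itgad, Itga6 and Itga3 in cDC1s were lost in 3 of 10 each (up to 0.0203, 0.021 and 0.048), those without WT cDC1 library 1 or either cKO cDC1 library. Itga3 was also lost with pseudocounts of 0.1 (limma adjusted p 0.0538) and 0.5 (0.0113) and with the replicate block (0.0222). With no filter Itgad in pDCs (0.0197) and Itga5 in cDC2s (0.0179) were lost.

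Activators switch integrins on from inside the cell, and 1 of 9 tested was called in pDCs and 1 in cDC1s, beside 1.05% and 22.4% of all genes. Rassf5 (RAPL), which binds active Rap1, was called lower in pDCs, from 154 to 181 TPM in WT to 92.9 to 106 TPM in cKO libraries (−0.73, SE 0.08, limma adjusted p 0.00383). Leaving out single libraries ended that call in 5 of 6 cases (limma adjusted p 0.0102 to 0.0295), all but WT pDC library 1. It was also lost with no filter (0.0158) and with no trend in the variance (0.0135). Rasgrp2, which encodes the Rap1 exchange factor CalDAG-GEFI, was called higher in cDC1s, from 5.88 and 10.2 TPM to 30.5 and 22.1 TPM (1.62, SE 0.27, adjusted p 0.00125), and lost its call without WT cDC1 library 1 (0.0113) or cKO cDC1 library 1 (0.0177). In cDC2s limma called 0 of 9 activators, beside 7.15% of all genes, with 2 at an unadjusted p under 0.05. The activator list had medians of 0.01, 0.06 and 0.01 in pDCs, cDC1s and cDC2s.

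Linkers tie integrin tails to actin. In cDC1s 5 of 11 tested were called, beside 22.4% of all genes. Parvb (β-parvin, 1.63), Vcl (vinculin, 1.07), Actn4 (α-actinin-4, 0.92) and Zyx (zyxin, 0.78) were higher and Actn1 (α-actinin-1, −1.52) lower. The calls of Actn1 and Parvb were made in all 22 alternatives, Actn4 was lost without any 1 of the 4 cDC1 libraries (adjusted p up to 0.0292), Zyx in 6 of 10 such fits, those and the ones without WT cDC2 library 1 or cKO cDC2 library 3, and after median-of-ratios scaling (up to 0.0789), and Vcl without cKO cDC1 library 1 (0.0134). Zyx was also lost with no filter (limma adjusted p 0.021) and with no trend in the variance (0.0122). In cDC2s, where 7.15% of all genes were called, Parvb (1.22) was higher and Ptk2, which encodes focal adhesion kinase, lower (−0.65). Parvb there was lost without cKO cDC2 library 3 (limma adjusted p 0.0128), and Ptk2 in 6 of 10 fits (up to 0.0291). Ptk2 was kept without either WT cDC1 library, WT cDC2 library 2 or cKO cDC2 library 1. Ptk2 was also lost with no filter (limma adjusted p 0.0109), with the replicate block (0.0147) and with the cDC2 libraries alone (0.0123). In pDCs limma called 0 of 10 linkers, beside 1.05% of all genes, with 2 at an unadjusted p under 0.05.

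Of the 5 inhibitors, Flna, which encodes filamin A, was called higher in cDC1s (1.27, SE 0.18, limma adjusted p 5.79e-04) in all 22 alternatives. Cytip, which encodes cytohesin-interacting protein, was called lower there (−1.16, SE 0.24, adjusted p 0.00436), and not without cKO cDC1 library 1 or 2 (up to 0.0306). Its call was also lost with no filter (0.0128) and with the cDC1 libraries alone (0.0167). In pDCs and cDC2s limma called 0 of 5, with 1 and 2 at an unadjusted p under 0.05. Of 6 tested ligands, Vcam1, the ligand of α4β1, was called lower in cDC1s, from 42.1 and 27.9 TPM to 7.03 and 9.79 TPM (−1.92, SE 0.40, adjusted p 0.00405). Icam2, a ligand of LFA-1, was called higher (0.82, SE 0.12, adjusted p 8.07e-04). In cDC2s Mfge8, an RGD protein bound by αvβ3 and αvβ5, was called higher, from 11.3 to 11.6 TPM to 19.8 to 26.2 TPM (0.90, SE 0.17, adjusted p 0.00645). Vcam1 lost its call without WT cDC1 library 1 (log2 fold change −1.63) or cKO cDC1 library 1 (−1.71) or 2 (−2.14), and Icam2 without cKO cDC1 library 2 (0.77). Mfge8 lost its call in 8 of 10 fits (limma adjusted p up to 0.0332) and kept it without either WT cDC1 library. Vcam1 and Mfge8 were also lost with no filter (0.0128 and 0.017) and with the replicate block (0.017 and 0.0257). In pDCs limma called 0 of 6 ligands, with 2 at an unadjusted p under 0.05. Over the 6 lists, 3 of 38 tested genes were called in pDCs (7.89%, beside 1.05% of all genes), 16 of 45 in cDC1s (35.6%, beside 22.4%) and 6 of 45 in cDC2s (13.3%, beside 7.15%). In cDC1s these were 10 higher and 6 lower, and after median-of-ratios scaling 9 higher and 10 lower. Itgam and Itgad, genes of the Itgax locus, are among the called genes in every subset. In pDCs only Rassf5 was called beside them.

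**Figure D4:**
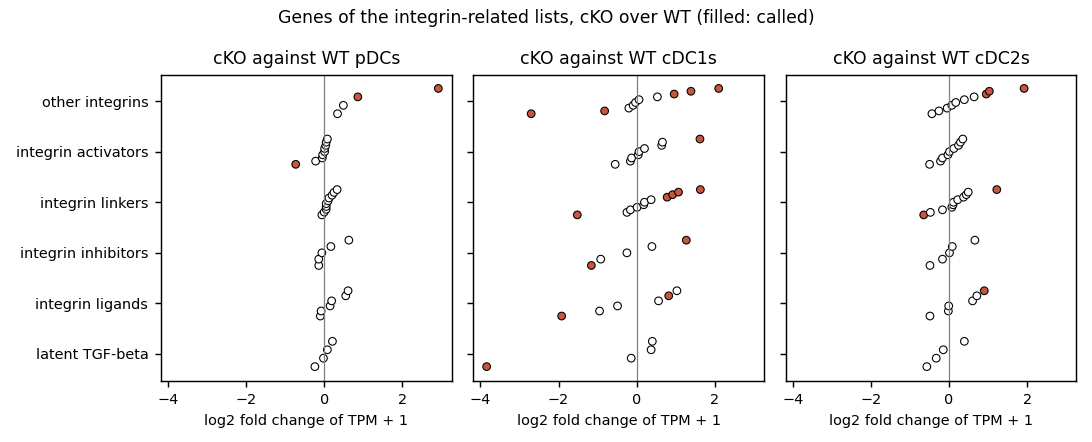
Log2 fold change of TPM + 1 (horizontal axis), cKO over WT, of the tested genes of 6 integrin-related lists (rows) in pDCs, cDC1s and cDC2s; each point is a gene and filled points are called. The widest spread is in cDC1s, from Ltbp2 at −3.84 to Itgam at 2.10.

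Markers of other cells were summed in the same way. The 8 T cell markers summed to 31.8 to 45.6 TPM in WT and 71.5 to 97.0 TPM in cKO pDCs, where Thy1 (1.93) and Lat (1.44) were called higher. Cd5 was 4.58 to 8.16 TPM in WT and 9.56 to 11.07 TPM in cKO pDCs (0.77, limma adjusted p 0.0656) and was not called. Cd3d, Cd3e, Cd3g and Bcl11b stayed at 0 to 0.94 TPM in pDCs, and Cd28 differed by 0.05. In cDCs the list summed to at most 31.1 TPM. The 8 neutrophil markers summed to 8.98, 23.0 and 29.7 TPM in WT and 138, 30.3 and 51.0 TPM in cKO pDCs, the highest value being that of library 1 alone. They summed to 1.84 and 17.0 against 22.7 and 42.9 TPM in cDC1s, and to 8.56 to 34.8 against 19.6 to 83.7 TPM in cDC2s. The 6 platelet markers, of interest because platelets carry β3, summed to at most 8.69 TPM in any library, and to 4.65 to 4.96 TPM in cKO cDC2s. The 6 NK cell markers summed to at most 5.74 TPM and the 6 B cell markers to at most 134 TPM. The 7 erythroid markers ran from 385 to 10700 TPM, highest in WT cDC2 library 2. In pDCs the pDC marker Cd209d was called lower (−0.55). In cDC1s Bst2, Tcf4 and Clec10a were called higher and Ccr9, Clec9a, Cadm1, Cd4, Esam and the B cell marker Ms4a1 lower. Other markers of these lists were not called there and had both signs. Among cDC1 markers these were Cd24a (0.34), Tlr3 (0.23), Batf3 (0.06), Xcr1 (−0.52) and Cd8a (−1.20). Among B cell markers they were Cd79b (1.09), Fcer2a (0.39) and Cd79a (−0.39). In cDC2s Clec10a was called higher and Irf4, Esam, Cd4 and Ms4a1 lower. The cDC2 markers Sirpa (0.12), Cd209a (0.22) and Clec4a4 (−0.77) and the B cell markers Cd79b (0.27), Cd79a (0.12) and Fcer2a (−0.02) were not called there.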

How the data were processed

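Splenic pDCs, cDC1s and cDC2s of WT and cKO mice were profiled by RNA-seq (BGISEQ-500, single-end 50-base reads). Per the methods and the submitters' notes, the authors filtered reads with SOAPnuke, mapped them to mm10 transcripts with Bowtie2 2.2.5 and quantified genes with RSEM 1.2.12. HISAT2 2.0.4 is also listed. TPM values were deposited by the authors for 17128 genes in pDCs and 17721 in cDCs, and FPKM values were deposited for the same genes. The deposited values are not counts, so limma replaced the count model the authors used. Gene IDs were matched to RefSeq (GRCm38.p6).

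Genes with a mean of at least 1 TPM were fitted as log2(TPM + 1) with limma 3.58.1 (trend, R 4.3.3), over 6 pDC libraries and over 10 cDC libraries as 4 group means, two-sided, with Benjamini-Hochberg adjustment. Errors are SD for TPM and SE for fold changes. Depth was estimated from the spacing of low FPKM values (Python 3.11.15, largest error 0.624% on simulated libraries). Intervals of fold changes are limma's and rest on the spread between libraries, while read floors cover counting error only. Simulated data were used to test the fits.

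In pDCs, same-numbered libraries deviated together (r = 0.31, 0.392 and 0.206), a pairing that is read from the data. The main fits ignore this pairing, and pDC values are unpaired unless the replicate block is named.

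The members, lists and tests were chosen with earlier results of these data known. Named were all members, called genes of each other list (at most 4 of the largest), Trim33, and the 3 genes nearest to Itgav. Itga3 and Zyx in cDC1s, the smallest of 5 called in their lists, were named after their values were seen. Alternatives covered pseudocount, filter, scaling, FPKM, trend, threshold, block, subset and left-out libraries.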

Additional observations from a re-analysis of the deposited data

Results flagged for a closer look

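Itgae and Ltbp2 stand out because their change between WT and cKO libraries differed between the cDC subsets by a test of the difference itself. That test called 2.56% of all genes, among them the maturation markers Il12b (−4.05) and Ccl22 (−3.45) and the pDC marker Ccr9 (−1.10). For Itgae the cDC1 effect minus the cDC2 effect was −2.26 (SE 0.34, limma adjusted p 0.00417), and it lost its call without WT cDC1 library 1 (adjusted p 0.0256) or cKO cDC1 library 1 (0.0304) or 2 (0.0226), with pseudocounts of 0.1 (0.133) and 0.5 (0.0224), with no filter (0.0148) and with the replicate block (0.0287). Its cDC2 levels were 0.69 to 1.42 TPM in WT and 0.23 to 1.11 TPM in cKO libraries, so that effect rests on low values. For Ltbp2 the difference was −3.27 (SE 0.24, limma adjusted p 7.77e-05) and was called in all 20 alternatives. Itgb7, the β partner of αE, missed the threshold in the same test (1.05, adjusted p 0.0149). With 2 or 3 libraries a group, no group was examined for outlying libraries.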

How the results depend on the processing

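With 2 or 3 libraries a group, small processing changes decided several calls, and Itgb7 in cDC1s was the member called in every alternative of a cKO comparison. Member calls in cDC1s (2 as given) numbered 1 with no filter, with FPKM, with the replicate block and with a fold limit of 1 on the log2 scale. In cDC2s (1 as given) they numbered 0 with a pseudocount of 0.1, no filter, the replicate block, that fold limit or the cDC2 libraries alone, and 2 after median-of-ratios scaling, with FPKM or at an adjusted p of 0.05. For the cDC1 effect minus the cDC2 effect (0 as given) limma called 1 with FPKM or at 0.05, and for WT cDC1s against WT cDC2s (3 as given) 6 at 0.05. In the integrin-related lists, pDCs (3 as given) gave 1 with no filter, the fold limit or no trend in the variance, 4 (3 higher, 1 lower) with the replicate block and 5 at 0.05, cDC1s (16 as given) gave 26 at 0.05, and cDC2s (6 as given) gave 3 with no filter, the block or the fold limit and 14 at 0.05. Leaving out 1 library gave 0 member calls in pDCs, 1 to 3 in cDC1s, 0 to 1 in cDC2s, 0 for the difference and 1 to 3 between WT subsets, and 1 to 2, 7 to 18 and 2 to 6 list calls in pDCs, cDC1s and cDC2s.

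Directions turned only for members near 0. Itgb7 in pDCs was 0.03 after median-of-ratios scaling, 0.02 with FPKM and −0.07 to 0.05 with 1 library left out. Itgav in cDC1s was −0.10 after median-of-ratios scaling, −0.11 after quantile normalization and −0.11 to 0.24 with 1 library left out. Leaving out 1 library also gave −0.03 to 0.04 for Itgal, −0.02 to 0.05 for Itgb1, −0.13 to 0.11 for Itgav and −0.08 to 0.08 for Itgb3 in pDCs, and for Itgav −0.02 to 0.19 in cDC2s, −0.16 to 0.19 between WT subsets and −0.19 to 0.16 for the difference. The replicate block left pDC member calls at 0. In cDCs same-numbered libraries did not all deviate together (r = −0.233 in cDC1s and −0.249, 0.253 and −0.165 in cDC2s). The largest value in cDC2s, 0.468, was that of WT library 3 with cKO library 1, and no crossed pairing was fitted there. A crossed pairing in cDC1s, chosen after seeing the data, gave 1 member call and 16 list calls. The cause of these changes was not tested, except that a left-out library means fewer samples.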
